A study of Mus musculus with 23 samples.

Results

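The step from haemogenic endothelium (HE) to HE2 was examined in mouse cells in which RUNX1-ETO had been switched on with doxycycline (Dox). It rested on 6 of the 23 arrays of the study, with 3 arrays of induced HE2 set against 3 arrays of induced HE by their titles, and on all 15203 genes with a signal on at least 1 array. The cells came from a single mouse embryonic stem (ES) cell line, labelled C57BL/6, with an intact Runx1 gene and a human RUNX1-ETO cDNA behind a tetracycline-responsive promoter. They were grown in blast culture from Flk1+ cells, given Dox at 0.1 μg per ml from day 1 and sorted on day 2. HE cells carried Tie2 and KIT on the surface, whereas HE2 cells had gained CD41 and still carried Tie2. The same stages of the same line without Dox, with 3 arrays each, are given beside the induced ones. Titles call the arrays biological replicates and do not say whether each came from a culture of its own, so that the P values measure the spread between these arrays.

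Blood cells of the embryo arise from endothelium that switches its identity, a step called the endothelial-haematopoietic transition. The transcription factor RUNX1 drives this step, first raising blood genes and then repressing endothelial ones. RUNX1-ETO, which is made by a translocation in acute myeloid leukaemia, joins the DNA-binding domain of RUNX1 to the corepressor protein ETO. The question was which changes between these stages still took place with the fusion protein present.

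Values are log2 intensities after quantile normalization, in which a step of 1 is a 2-fold difference within 1 gene, and they do not rank genes against each other. For a call, limma had to give a P value no higher than 0.001 and the means had to differ by 2-fold or more. Adjusted P values, by the Benjamini-Hochberg method, take in every gene tested. The labels of the cells were first set against their sort markers. Kit read 12.63, 12.90 and 13.31 on the induced HE arrays and 12.65, 12.55 and 13.25 on the induced HE2 arrays. Tek, which encodes Tie2, read 14.15, 11.96 and 12.63 in induced HE and 12.97, 13.29 and 10.95 in induced HE2. Both stages therefore carried their shared markers, and the groups overlapped. Itga2b, which encodes CD41, read 7.54, 6.92 and 8.02 in induced HE and 9.58, 10.74 and 7.72 in induced HE2. Its mean was higher in HE2 by 1.85, with a standard error (SE) of 0.65 and an adjusted limma P of 0.115, and missed the threshold, since HE2 array 3 lay below HE array 3. Without this HE2 array the change of Itga2b was 2.67 and was called. The same array was also the lowest of the induced HE2 arrays for Tek and for the endothelial junction gene Pecam1, at 8.96 against 10.52 and 10.99. Platelet genes described below went both ways on it. It was the highest of the induced HE2 arrays for Treml1, Itgb3, Pf4 and Gp9 and the lowest for Plek, as for Itga2b. Cdh5, Pecam1 and Ptprc were looked up only to check the labels. Cdh5, which encodes VE-cadherin and defines endothelium, lay between 14.09 and 14.76 on all 6 arrays. Ptprc, the pan-leukocyte marker CD45, lay between 5.55 and 6.10, below the 6.5 used to count a gene as expressed. Of 11 markers of macrophages, another type of blood cell, 7 were tested, and Cd68, C1qa, Msr1 and Cd163 were not. Of these 7, 0 were called by limma with Dox, with a median log2 change of -0.05. The median was -0.23 to 0.06 leaving out 1 array, and 1 gene was called as falling without uninduced HE array 2 or 3. At an unadjusted P under 0.05, 1 gene of the 7 was lower, and the share of all genes at this P value is not given here. In bulk samples such as these, more cells of a type and more RNA per cell cannot be told apart.

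With the fusion protein present, 246 genes rose from HE to HE2 (1.62% of those tested) and 226 fell (1.49%), or 3.1% in either direction, with adjusted P values of up to 0.0252. Without Dox, 365 genes rose (2.4%) and 402 fell (2.64%), or 5.05% in either direction. Of the 246 genes that rose with Dox, 142 also rose without it, which is 57.7% of the former and 38.9% of the latter list, with median changes of 1.74 and 2.19. For the falling genes 51 were shared, or 22.6 and 12.7% of each list, with median changes of -1.42 and -1.48. The 51 shared falls were 28 without induced HE array 2, induced HE2 array 2 or uninduced HE2 array 3, and 29 without induced HE2 array 1 or uninduced HE array 2. The 402 falls without Dox were 195 without uninduced HE2 array 3 and 258 without uninduced HE array 3. No gene was called in opposite directions. Genes called with Dox alone were mostly changed the same way without it, in 88 of 104 rising and 154 of 175 falling genes, by a median of 0.59 and -0.58. Arrays of both stages did not overlap for all 246 rising and 223 of 226 falling genes, and over all genes tested 9.52 and 7.52% were without overlap in these directions. Replicate 1 of both induced stages was on 1 slide and replicates 2 and 3 on another. Within each slide, 471 of 471 called genes with a value on both changed in the direction called, which the calls on these same arrays nearly fix. With the slide as a block 264 genes rose and 248 fell. The plot of changes with against without Dox shows that genes on the right often rose in both, while genes on the left and at the bottom mostly fell in only 1 condition by this threshold.

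**Figure D1:**
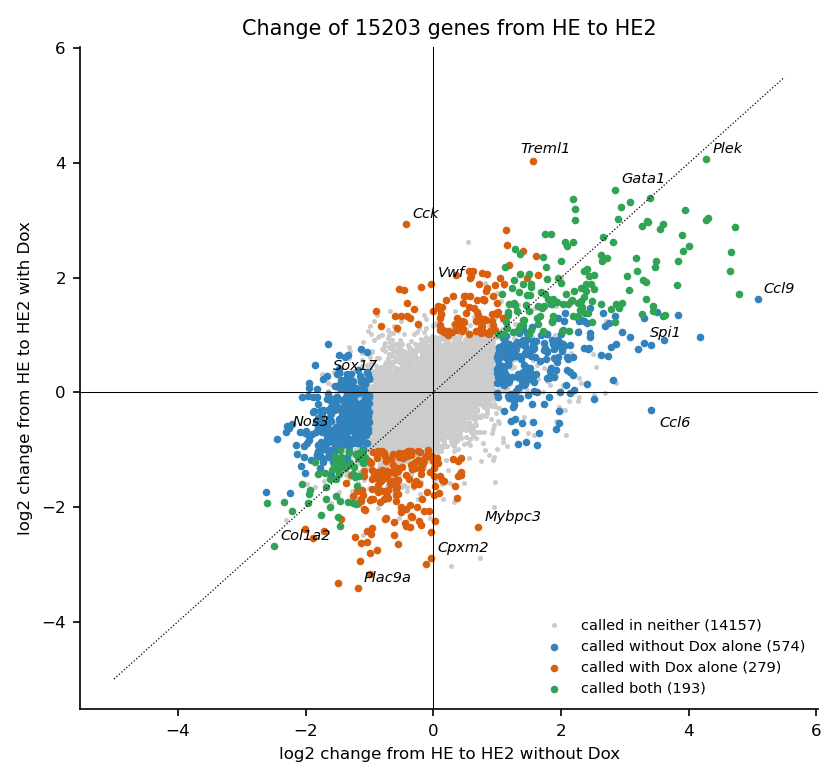
Each of the 15203 points is a gene, with its log2 change from HE to HE2 without Dox on the x axis and with Dox on the y axis; colours mark the genes called in both (193), without Dox alone (574), with Dox alone (279) or in neither, and the dotted line marks equal changes. Plek and Gata1 lie near the line at the upper right, Ccl6, Ccl9 and Spi1 below it, and Cck, Treml1 and Vwf above it.

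Among the lists, megakaryocyte and platelet genes had the largest share of rises with Dox, where 1.62% of all genes tested rose. The lists were chosen with earlier results of these data known, so that the count describes the list and does not test it. HE2 is also sorted by CD41, whose gene Itga2b is a member. Of 31 such genes 21 rose with Dox and 0 fell, with a median change of 1.85 against 0.01 over all genes. Without Dox 16 rose, 14 of them among the 21, with a median of 1.27. The list shares members, among them Gata1, with the lists of transcription factors and receptors below.

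Plek, the platelet protein kinase C substrate pleckstrin, had the largest rise of all. It read 9.46, 9.71 and 7.72 in induced HE and 13.22, 13.25 and 12.62 in induced HE2, a change of 4.07 (SE 0.38, adjusted P = 6.8e-06 from limma), beside 4.27 without Dox. All HE2 arrays lay far above all HE arrays. Treml1, a receptor of platelet granules, went from 6.65, 8.18 and 7.24 to 10.54, 11.23 and 12.40, a change of 4.03 (SE 0.54, adjusted P = 0.000163 from limma). Without Dox it changed by 1.56, which was not called (adjusted P = 0.0768), and the difference of 2.47 between both changes was not called either (adjusted P = 0.184). Itgb3, the integrin chain that pairs with CD41 in the fibrinogen receptor, read 10.31, 12.57 and 10.72 in induced HE and 14.08, 14.08 and 14.35 in induced HE2, a rise of 2.97. HE array 2 was the highest of its group here, as for most of the 21 genes. P2rx1, the ATP-gated channel of platelets, rose by 3.24. Pf4, platelet factor 4, read 5.5, 5.95 and 5.62 in induced HE and 7.57, 8.0 and 8.55 in induced HE2. Gp9, a subunit of the von Willebrand factor receptor, read 4.94, 5.78 and 4.82 and then 7.40, 7.19 and 7.82, and was well above background on 1 of the 3 HE arrays. Both platelet genes were thus dim in HE and without overlap, with changes of 2.35 and 2.29. Since Gp9 was not well above background on most HE arrays, the size of its change is not exact. Among the others, Gp1ba rose by 2.58, Mmrn1 by 2.74, Rab27b by 2.51, F13a1 by 3.00 and Gp5 by 1.77. The change of F13a1 was 1.63 to 3.35 over all alternatives, and it was called in each. Tubb1, the platelet β-tubulin, rose by 1.67, and its call was lost without any single one of the 12 HE and HE2 arrays other than induced HE2 array 3, at 1.16 to 2.08 over these fits. The remaining members without a call included Nbeal2, at 0.82 with and 3.41 without Dox, and Rasgrp2, at 0.73 and 1.78. For no member of the list was the difference between both changes called.

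**Figure D2:**
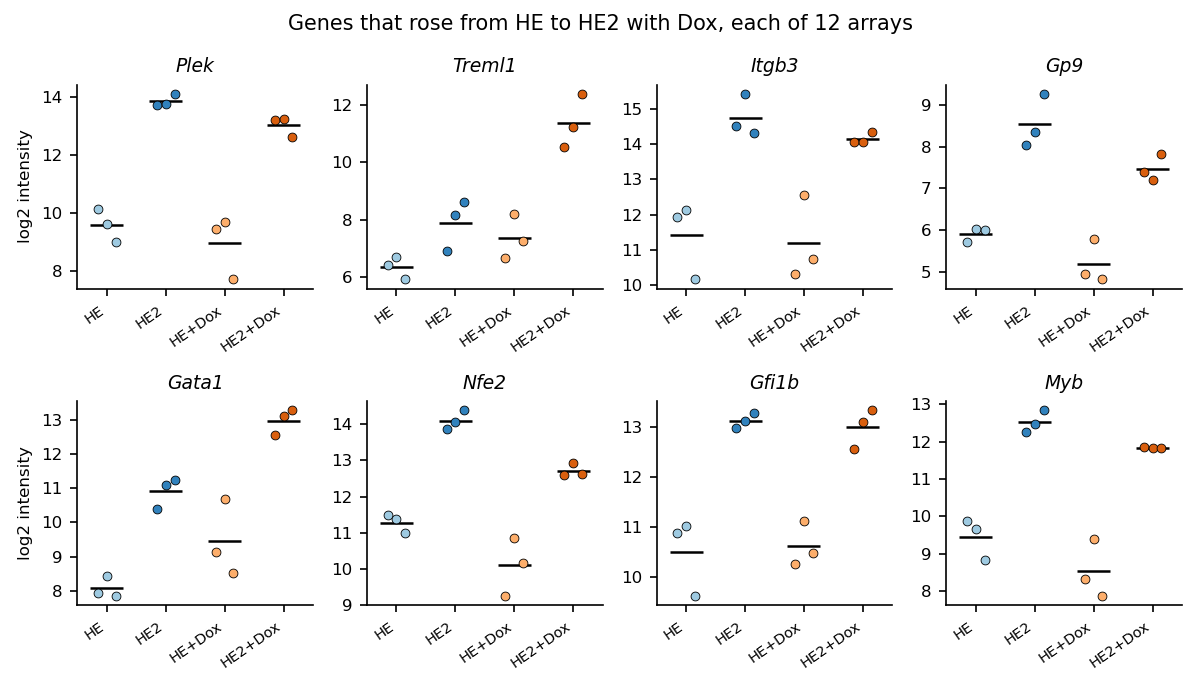
Log2 intensity of 8 genes on each of the 12 HE and HE2 arrays, 3 points per group with the group mean as a bar; HE and HE2 stand for cells without Dox. On the right of each panel the 3 induced HE2 arrays lie above the 3 induced HE arrays, for example at 12.62 to 13.25 against 7.72 to 9.71 for Plek.

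The promoters of these genes are shown as RefSeq gives them on build GRCm38.p6, from 250 bases before to 50 after the annotated start, for 4 platelet genes that rose together. Capitals mark matches to a RUNX motif spelled TGTGGT, to a GATA motif spelled AGATAA, and to either of a pair of ETS motifs, of which the first was spelled GAGGAAG and the other CCGGAAG. All were searched on both strands, and matches do not overlap in these promoters. The 4 were picked after the matches were seen. Gp9 lies at chr6:87777820-87778119 on the plus strand, Pf4 at chr5:90772185-90772484 on the plus strand, Gp5 at chr16:30310732-30311031 on the minus strand and Tspan32, a tetraspanin of platelets, at chr7:143004796-143005095 on the plus strand.
Gp9: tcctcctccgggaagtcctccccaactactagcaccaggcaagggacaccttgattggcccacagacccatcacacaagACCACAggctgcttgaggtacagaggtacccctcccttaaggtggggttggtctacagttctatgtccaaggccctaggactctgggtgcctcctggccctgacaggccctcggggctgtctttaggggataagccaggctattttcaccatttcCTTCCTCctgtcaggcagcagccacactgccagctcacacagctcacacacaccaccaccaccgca
Pf4: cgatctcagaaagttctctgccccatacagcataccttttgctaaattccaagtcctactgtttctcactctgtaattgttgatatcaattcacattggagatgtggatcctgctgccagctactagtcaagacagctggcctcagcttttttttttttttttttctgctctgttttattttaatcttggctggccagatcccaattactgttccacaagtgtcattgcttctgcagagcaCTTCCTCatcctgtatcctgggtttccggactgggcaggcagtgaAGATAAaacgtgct
Gp5: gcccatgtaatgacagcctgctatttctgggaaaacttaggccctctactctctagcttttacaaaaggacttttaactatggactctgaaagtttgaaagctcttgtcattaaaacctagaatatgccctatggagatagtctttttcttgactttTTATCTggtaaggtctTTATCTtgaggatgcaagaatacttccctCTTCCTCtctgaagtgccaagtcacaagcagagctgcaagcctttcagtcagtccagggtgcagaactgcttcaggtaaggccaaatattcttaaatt
Tspan32: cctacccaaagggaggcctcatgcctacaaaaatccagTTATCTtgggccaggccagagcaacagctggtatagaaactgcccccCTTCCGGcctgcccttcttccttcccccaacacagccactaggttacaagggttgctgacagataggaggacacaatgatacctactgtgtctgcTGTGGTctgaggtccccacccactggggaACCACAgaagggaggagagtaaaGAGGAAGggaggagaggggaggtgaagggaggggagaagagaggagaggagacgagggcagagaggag
Of the 246 rising genes 196 had an entry, with 241 promoters, and of the 226 falling genes 155, with 215. The RUNX motif stood in 19.9% of the promoters of rising genes, 13.5% of those of falling genes and 13.2% of those of all genes tested that had an entry. The GATA motif stood in 14.5, 7.91 and 7.69% in the same order, the first ETS motif in 18.7, 17.2 and 13.6%, and the other ETS motif in 4.15, 4.19 and 14.7%. For the 21 platelet genes, with 19 promoters of 18 genes, the RUNX motif stood in 4, the GATA motif in 6, the first ETS motif in 10 and the other ETS motif in 1. Over all 32851 promoters in the table the shares were 16.8, 11.2, 13.6 and 8.86% for the RUNX, GATA, first ETS and other ETS motif. These are matches of letters, and binding was not measured on the arrays.

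Haematopoietic transcription factors rose in 12 of 31 cases with Dox and 0 fell, with a median change of 0.86 against 0.01 over all genes. Without Dox 14 rose, 10 of them the same genes, with a median of 0.75. The median with Dox was 0.48 without induced HE2 array 2, 0.51 at a normexp offset of 50 or with all probes averaged, and 0.48 in the deposited values. Gata1, the regulator of megakaryocyte and red cell genes, read 9.12, 10.67 and 8.53 in induced HE and 12.54, 13.11 and 13.28 in induced HE2, a rise of 3.54 (SE 0.39, adjusted P = 2.05e-05 from limma), beside 2.84 without Dox. The groups stood well apart. Myb, which is needed for definitive blood progenitors, went from 8.32, 9.38 and 7.87 to 11.87, 11.84 and 11.83, with the HE2 arrays close together, and rose by 3.32 beside 3.07 without Dox. Nfe2, a factor of late megakaryocytes, rose by 2.62, Gfi1b, a repressor downstream of RUNX1, by 2.40, and Cebpb by 2.90, and their changes without Dox were 2.82, 2.63 and 3.26. Lyl1, a partner of the blood factor SCL, rose by 2.19 with and 1.12 without Dox, a difference that was not called (adjusted P = 0.234 from limma). Bcl11a, Meis1, Klf1 and Cebpd rose by 1.72, 1.38, 1.26 and 1.22. The calls of Bcl11a and Meis1 were lost without induced HE array 1 or 3 or HE2 array 3, that of Meis1 also without HE2 array 2, that of Cebpd without HE array 3 and that of Klf1 without any single induced array, with changes over all alternatives of 1.34 to 1.93, 1.24 to 1.58, 0.97 to 1.39 and 0.91 to 1.33.

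Runx1 itself read 10.68, 12.04 and 11.79 in induced HE and 12.48, 12.82 and 12.93 in induced HE2. The arrays did not overlap, yet the change of 1.24 missed the threshold (adjusted P = 0.0481 from limma), beside 2.28 without Dox, and the difference was not called (adjusted P = 0.589). The change of Runx1 with Dox was called with all its probes averaged, at 1.38 (adjusted P = 0.00117), and, at 1.24, without uninduced HE array 3 (adjusted P = 0.0185) or with the replicate block (adjusted P = 0.013). The probe of Runx1 may also read the transgene, which was not tested. Runx1t1, the mouse gene of ETO, was at 11.81 to 12.43 in induced HE and 11.51 to 12.46 in induced HE2, with a change of -0.09.

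Of the 31 haematopoietic transcription factors, Spi1, Ikzf1 and Cebpe had a change that differed with Dox by the interaction term, beside 1.35% of all genes tested. Spi1 encodes PU.1, the factor of myeloid and lymphoid cells. It read 5.32, 5.25 and 4.94 in induced HE and 5.79, 7.16 and 5.14 in induced HE2, a change of 0.86 (adjusted P = 0.21 from limma). Without Dox it went from 5.71, 5.02 and 5.68 to 8.60, 8.82 and 8.88, a change of 3.30. The groups thus overlapped with Dox, with only HE2 array 2 clearly raised, and the difference between the changes was -2.44 (SE 0.52, adjusted P = 0.0296). Ikzf1, a lymphoid and myeloid zinc finger factor, rose in both conditions, by 1.34 with and 3.60 without Dox, with a difference of -2.26 (SE 0.37, adjusted P = 0.0085). Induced HE2 arrays lay at 8.23 to 8.35, between the induced HE arrays at 6.64 to 7.16 and the uninduced HE2 arrays at 9.59 to 10.04. Averaging all probes of Ikzf1 ended the call with Dox, at 0.51. Cebpe, a granulocyte factor, changed by 0.27 with and 1.51 without Dox, a difference of -1.25 with an adjusted P of 0.0518 that lost its call without induced HE array 1 or HE2 array 1 or 2, without uninduced HE array 2 or 3 or HE2 array 2 or 3, and with the replicate block (adjusted P = 0.0638). The difference for Spi1 kept its call without any single array, and lost it when the HE and HE2 arrays were fitted alone.

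Genes of leukocyte signalling and the cytoskeleton rose in 14 of 34 cases with Dox and 0 fell, beside 19 rises without Dox, 12 of them shared, with median changes of 0.82 and 1.83. Vav1, a signalling protein of blood cells, rose in both, by 2.71 and 2.66, and the adaptor Dok2 by 2.34 and 2.71. Sla, an adaptor that dampens antigen receptor signals, read 7.04, 7.36 and 6.26 in induced HE and 9.83, 10.18 and 9.77 in induced HE2, a rise of 3.04 beside 4.31. Cd52, Coro1a and Btk rose in both conditions and less with Dox. Cd52, a small surface glycoprotein of leukocytes, went from 6.48, 6.71 and 5.8 to 9.38, 8.22 and 8.76 with Dox, a rise of 2.45 beside 4.66, and the difference was -2.20 (SE 0.48, adjusted P = 0.034 from limma). Coro1a, an actin regulator of leukocytes, rose by 1.35 and 3.63, with a difference of -2.28 (SE 0.41, adjusted P = 0.0119). Its call with Dox was lost without induced HE array 1 or 3 or HE2 array 1, at 1.18 to 1.57 over all alternatives. Btk, the kinase of B cells and platelets, rose by 1.63 and 3.33, with a difference of -1.70 (SE 0.37, adjusted P = 0.0324). Averaging all probes of Btk ended both calls, at 1.06 with Dox and -1.31 for the difference.

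Myeloid and granule genes rose in 7 of 29 cases with Dox and 0 fell, beside 14 rises without Dox that included all 7, with median changes of 0.31 and 1.17. Mpo, the peroxidase of granules, read 8.63, 9.11 and 8.35 in induced HE and 11.31, 11.88 and 11.89 in induced HE2, a rise of 3.00 beside 3.35 without Dox. Lyz1, a lysozyme whose probe may also bind its near copy Lyz2, rose by 2.93 and 3.60, and the Fc receptor chain Fcer1g by 2.47 and 3.91. Tyrobp, the adaptor DAP12, rose by 1.71 and 4.79, with a difference of -3.07 (SE 0.50, adjusted P = 0.0085 from limma), and was no longer called with Dox without induced HE array 3, at 1.51, or HE2 array 1, at 1.46. Uninduced HE lay at 6.14 to 7.59 for this gene and induced HE at 8.46 to 9.30, so that the starting levels differed as well. Ncf1, a subunit of the NADPH oxidase, read 6.13, 6.29 and 6.64 and then 6.98, 6.43 and 6.09 with Dox, overlapping throughout, while without Dox it rose by 2.41. The difference was -2.26 (SE 0.35, adjusted P = 0.00655). Lyz2, Fcgr3 and Cd14, at 1.27, 1.32 and 0.04 with Dox, were called without Dox alone, at 2.32, 2.26 and 2.20, and their differences were not called. The count of 7 was 4 without induced HE array 3 or without induced HE2 array 1.

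**Figure D3:**
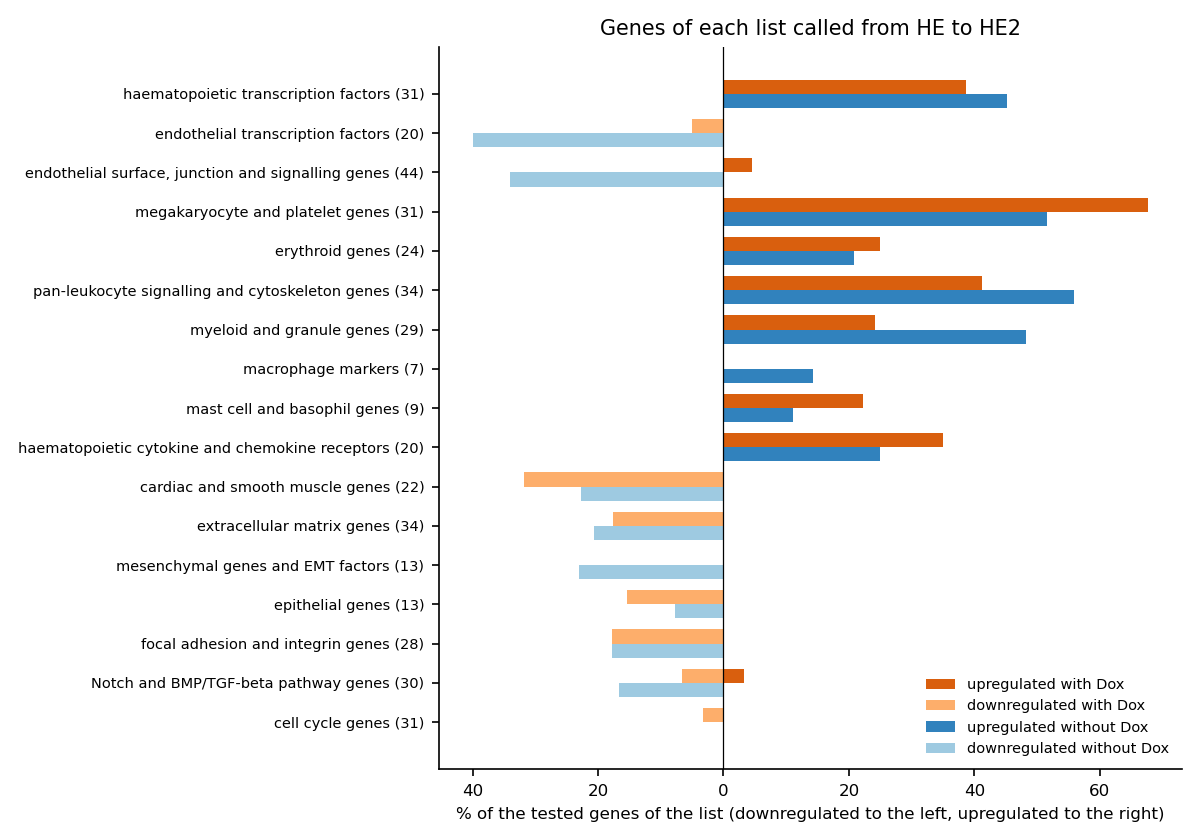
Bars give the percentage of the tested genes of each list, whose number stands in brackets, that were called from HE to HE2, upregulated to the right and downregulated to the left, with Dox in orange and without Dox in blue. Megakaryocyte genes reach furthest to the right with Dox (21 of 31), and the long left bars of the endothelial lists are those without Dox (8 of 20 and 15 of 44).

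Cytokine and chemokine receptors rose in 7 of 20 cases with Dox and in 5 of 20 without, all 5 among the 7, with median changes of 0.38 and 0.56. Among these were Csf2rb, the shared chain of the GM-CSF and IL-3 receptors, at 1.77, Gfra2 at 1.88, Cxcr3 at 1.81, Il1rl1, the IL-33 receptor of mast cells, at 2.38, Il2rg at 1.61 and Il6ra at 1.23. The change of Il1rl1 was 1.35 to 2.85 over all alternatives, and it was called in each. The call of Csf2rb was lost without induced HE array 1 or 3 or HE2 array 1 or 2, at 1.56 to 1.70. Il6ra rose by 2.84 without Dox, a difference of -1.61 (SE 0.38, adjusted P = 0.0535 from limma), and its call with Dox was lost without induced HE array 1 or 2 or HE2 array 3, at 0.87 to 1.40 over all alternatives. The call of the difference for Il6ra was lost without induced HE array 2 or 3 or HE2 array 1 or 2, without uninduced HE array 3 and without any uninduced HE2 array, at -1.64 to -1.40. Among mast cell genes Cpa3 and Il1rl1, 2 of 9, rose with Dox and Cpa3 alone without it. Cpa3 changed by 1.63 with Dox, and by 1.41 without induced HE array 3, which ended its call.

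Outside the lists, several of the largest rises were of surface and signalling proteins. Adgrg1, the adhesion receptor GPR56 of blood stem cells, read 9.41, 10.87 and 9.18 in induced HE and 13.04, 13.32 and 13.29 in induced HE2, a rise of 3.39 with and 3.39 without Dox. HE2 arrays were close together and well above those of HE. Its relative Adgrg3 rose by 3.20 and 2.21, and the organic anion transporter Slco4a1 by 3.38 and 2.18. Camkk1, a calcium-dependent kinase, rose by 3.02 with and 2.90 without Dox, and Gucy1a1, a subunit of the nitric oxide receptor, by 3.01 and 2.22. Clec4d, a C-type lectin of myeloid cells that was above background on 2 of 3 induced HE arrays, rose by 3.17 with Dox and by 3.94 without it. Each of these 6 calls with Dox held when any single array was left out.

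Erythroid genes rose in 6 of 24 cases with Dox and 5 without, 3 of them shared, with medians of 0.38 and 0.40. Hbb-y, an embryonic β-type globin, read 13.82, 15.41 and 14.17 in induced HE and 15.81, 16.16 and 16.50 in induced HE2, a rise of 1.69. Uninduced cells read 11.16 to 11.31 in HE and 11.54 to 12.38 in HE2, below every induced array. Hba-a1, an α-globin with a near-identical copy that its probe may also bind, rose by 2.04, and its call was lost without any single induced array other than HE2 array 3, without uninduced HE array 1 or HE2 array 1, and with the HE and HE2 arrays fitted alone, at 1.69 to 2.15. The count of 6 was 3 without induced HE array 1, HE array 3 or HE2 array 2.

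Endothelial genes, which are turned off in the normal transition, were seldom called with Dox. Of 20 endothelial transcription factors 1 fell with Dox, Foxc2, and 8 without, with median changes of 0.01 and -1.05. Of 44 endothelial surface, junction and signalling genes 0 fell with Dox and 15 without, and 2 rose with Dox and 0 without, with medians of -0.05 and -1.0. List counts without Dox were not recomputed leaving out arrays. The 402 falls of all genes without Dox were 195 without uninduced HE2 array 3 and 258 without uninduced HE array 3. Over all genes the medians were 0.01 and 0.03. By an unadjusted limma P under 0.05, 5 of the 44 genes were lower and 5 higher with Dox, and the share of all genes at this P value is not given here. The interaction term, which tests the difference itself, was called for 2 of the 20 and 4 of the 44 genes, each time higher with Dox. Over all genes tested, this term was called higher for 0.625% and lower for 0.724%.

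Sox17, a factor of arterial and haemogenic endothelium, read 12.08, 11.67 and 11.68 in induced HE and 11.75, 11.76 and 12.77 in induced HE2. Without Dox it fell from 12.10, 12.29 and 12.63 to 10.67, 10.90 and 10.45. The changes were 0.28 and -1.67, and they differed by 1.95 (SE 0.43, adjusted P = 0.035 from limma), with overlap in the induced groups alone. Nr2f2, the venous factor COUP-TFII, was the other factor with a called difference, at 1.24. Stab1, a scavenger receptor of endothelium, changed by -0.06 with and -1.96 without Dox, a difference of 1.90 (SE 0.45, adjusted P = 0.0543), whose call was lost without induced HE array 1 or 2 or HE2 array 1 or 3, and also without uninduced HE array 1 or 3 or HE2 array 2 or 3, at 1.70 to 1.90. Gja4 and Flt1, a connexin of arteries and a VEGF receptor, had differences of 2.00 and 1.5. They, like Nr2f2, are named after their values were seen. Nos3, the endothelial nitric oxide synthase, changed by -0.70 with and -2.30 without Dox, and Edn1, endothelin, by -0.08 and -2.05, and neither difference was called (adjusted P = 0.298 and 0.0971). Sox7 changed by -0.52 and -1.81 and Hey2, a Notch target of arteries, by -0.84 and -1.94, and again the differences were not called (adjusted P = 0.268 and 0.646).

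Vwf, von Willebrand factor of endothelium and megakaryocytes, was 1 of the 2 endothelial genes that rose with Dox. It read 6.96, 7.85 and 7.07 in induced HE and 8.93, 8.87 and 9.77 in induced HE2, a rise of 1.90 (SE 0.28, adjusted P = 0.000413 from limma). Uninduced arrays of both stages lay at 9.89 to 10.38, so that induced HE was the low group, and the difference between the changes was 1.93 (SE 0.40, adjusted P = 0.0251). Lyve1, a hyaluronan receptor of yolk sac and lymphatic endothelium, went from 9.91, 10.01 and 9.20 to 11.19, 11.59 and 11.83, a rise of 1.83, beside 0.84 without Dox, and this difference was not called (adjusted P = 0.525). Foxc2, a forkhead factor of vessels, fell by 1.21 and lost its call without induced HE array 2 or 3 or HE2 array 1, at -1.56 to -0.85 over all alternatives.

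**Figure D4:**
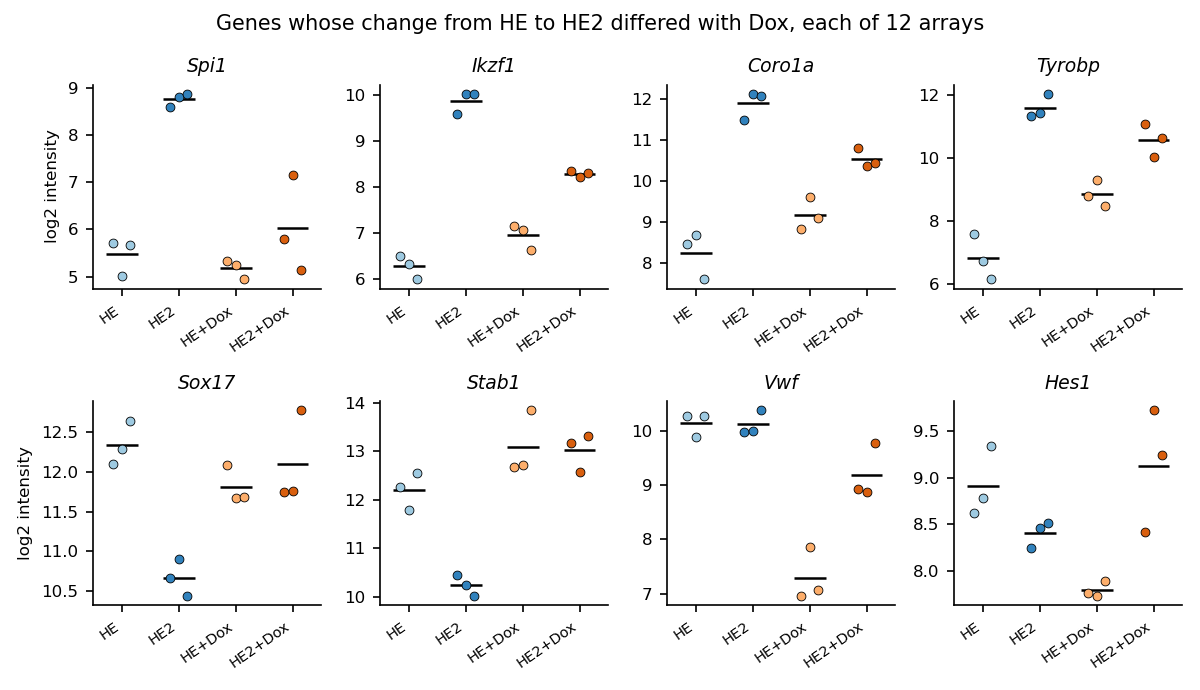
Log2 intensity of 8 genes whose change from HE to HE2 was called as different with Dox, on each of the 12 arrays, with group means as bars; HE and HE2 stand for cells without Dox. For Spi1 the induced HE2 arrays lie at 5.14 to 7.16 and the uninduced ones at 8.60 to 8.88, and for Sox17 at 11.75 to 12.77 and 10.45 to 10.90.

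In the Notch, BMP and TGF-β pathways 1 of 30 genes rose with Dox and 2 fell, beside 0 and 5 without, with medians of -0.10 and -0.58. Hes1, a repressor induced by Notch, read 7.76, 7.73 and 7.89 in induced HE and 8.42, 9.73 and 9.25 in induced HE2. It rose by 1.34 with Dox (SE 0.27, adjusted P = 0.00507 from limma) and changed by -0.51 without it, a difference of 1.84 (SE 0.38, adjusted P = 0.025). The arrays with Dox did not overlap, and uninduced arrays of both stages lay at 8.25 to 9.34. Bmp6, a BMP ligand, fell in both conditions, from 11.61, 11.52 and 11.40 to 9.74, 10.20 and 9.77 with Dox, by 1.61, and by 2.06 without. Tgfb2, a TGF-β ligand, fell by 1.78 with Dox and lost its call without any single induced array, at -1.91 to -1.53 over all alternatives.

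Genes of heart, smooth muscle and matrix, tissues that share a mesodermal origin with endothelium, were among the falls. Cardiac and smooth muscle genes fell in 7 of 22 cases with Dox, 5 without and 1 in both, with medians of -1.12 and -0.72. Acta2, smooth muscle actin, read 13.78, 13.52 and 13.23 in induced HE and 11.38, 11.42 and 11.56 in induced HE2, and fell by 2.06 (adjusted P = 0.00747 from limma). The HE2 arrays lay close together below all HE arrays. Tagln, another smooth muscle protein, fell by 1.93, Nkx2-5, the cardiac homeobox factor, by 2.20, and the natriuretic peptide gene Nppb by 1.84. The count of 7 was 2 to 4 without any single one of the 6 induced arrays, and those of Tagln and Nkx2-5 were lost in each of these fits. The call of Acta2 was lost without HE array 1, at -1.92, and that of Nppb without HE array 2, at -1.59, or HE2 array 2, at -1.77. The median change of the list lay between -1.23 and -0.96 over the same fits, and was -0.61 at a normexp offset of 50.

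Extracellular matrix genes fell in 6 of 34 cases with Dox, 7 without and 2 in both, with medians of -0.65 and -0.89. Col1a2, a chain of type I collagen, read 13.45, 13.75 and 13.77 in induced HE and 10.26, 11.40 and 11.24 in induced HE2, and fell by 2.69 (SE 0.47, adjusted P = 0.00162 from limma), beside -2.50 without Dox. Col3a1 fell by 2.21 with Dox, from 9.88 to 10.12 down to 7.54 to 8.15, and Lama1, a laminin chain, by 2.38, with a call that was lost without HE array 2 or 3 or HE2 array 1 or 2. Without induced HE array 3, HE2 array 1 or HE2 array 2 the count was 3. Focal adhesion and integrin genes fell in 5 of 28 cases in each condition, 2 of them shared, with medians of -0.23 and -0.66. The count with Dox was 1 without HE array 2 or 3 or HE2 array 1 or 2, and the median with Dox was -0.36 to -0.12 leaving out 1 array. Itgb7, an integrin of leukocytes and mast cells, fell by 1.39 with Dox and changed by 0.43 without, a difference of -1.82 (SE 0.45, adjusted P = 0.062). Both calls were lost without induced HE array 2 or 3 or HE2 array 1 or 2, at -1.33 to -1.08 for the change with Dox. That of the difference was also lost without uninduced HE array 1 or 3 or any uninduced HE2 array, at -1.85 to -1.5 over these 9 fits. Induced HE was at 10.02 to 11.39 and induced HE2 at 8.84 to 10.06, which overlapped slightly, while uninduced arrays were at 6.69 to 7.44. Epithelial genes fell in 2 of 13 cases, Dsp and Cldn3, beside 1 without Dox. Of 13 mesenchymal genes and factors of epithelial-mesenchymal transition 0 were called with Dox by limma and 3 fell without, with medians of -0.50 and -0.69. At an unadjusted P under 0.05, 5 of the 13 were lower with Dox, and the share of all genes at this P value is not given here. Cell cycle genes had a median change of 0.43 with and 0.23 without Dox, and the former was 0.26 to 0.53 leaving out 1 array. At an unadjusted P under 0.05, 14 of 31 were higher and 2 lower with Dox, again without the share of all genes beside them. Of the 31, only the inhibitor Cdkn2b was called, falling by 1.47, and this call was lost without HE array 1 or 2 or HE2 array 1 or 3, at -1.74 to -1.24 over all alternatives.

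The largest falls of all included genes whose level in induced HE lay above that in uninduced HE. Plac9a, a small secreted protein with a near copy in Plac9b, read 11.53, 11.30 and 12.22 in induced HE and 8.37, 7.89 and 8.53 in induced HE2, and fell by 3.42 (SE 0.38, adjusted P = 2.55e-05 from limma). Uninduced HE read 7.64 to 8.10 and uninduced HE2 6.21 to 7.07, so that induced HE was the high group. The difference of -2.24 between its changes with and without Dox was called (adjusted P = 0.0563), and lost its call without induced HE array 1 or 3 or HE2 array 1 or 2, and without uninduced HE array 1 or 3 or HE2 array 1 or 2, at -2.31 to -1.97. Cryab, the small heat shock protein αB-crystallin, went from 14.67, 14.73 and 15.10 to 11.34, 11.39 and 11.77, and fell by 3.33, and Hspb2, a related gene within the annotated span of Cryab, fell by 3.17. Nkain4, Cpxm2, Spon2 and Nckap5 followed the pattern of Plac9a. Cpxm2, a carboxypeptidase-like matrix protein, read 8.13, 8.74 and 8.14 in induced HE and 5.38, 5.59 and 5.38 in induced HE2, whereas all 6 uninduced arrays lay at 5.26 to 5.49. Its change of -2.89 differed from -0.04 without Dox by -2.85 (SE 0.33, adjusted P = 0.00127). For Nkain4 the change of -2.99 differed from -0.11 without Dox by -2.88 (SE 0.48, adjusted P = 0.00898). Mybpc3, the myosin-binding protein of heart muscle, fell from 11.63, 11.97 and 11.65 to 9.12, 9.0 and 10.06 with Dox and changed by 0.70 without it, a difference of -3.05 (SE 0.52, adjusted P = 0.00979). Mfap5, a microfibril protein, went from 10.82, 11.08 and 11.15 to 7.62, 7.80 and 8.79, and fell by 2.95 with Dox beside -1.15 without. Sulf1, a heparan sulphatase of the cell surface, fell by 2.63 with Dox, the membrane protein Emp2 by 2.76, Plet1 by 2.62 and the cystatin Cst13 by 2.65. Their changes without Dox were -1.13, -0.88, -1.04 and -0.56, and none of these differences was called. Tph1, the enzyme of serotonin synthesis, fell by 2.54 with Dox and lost its call without HE array 2 or 3 or HE2 array 1, at -3.13 to -2.08 over all alternatives. Vcam1, an adhesion molecule for leukocytes, fell by 2.52 and lost its call without induced HE array 2, at -2.80 to -1.41 over all alternatives. Induced against uninduced HE was not tested here, and these starting levels are given as values.

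**Figure D5:**
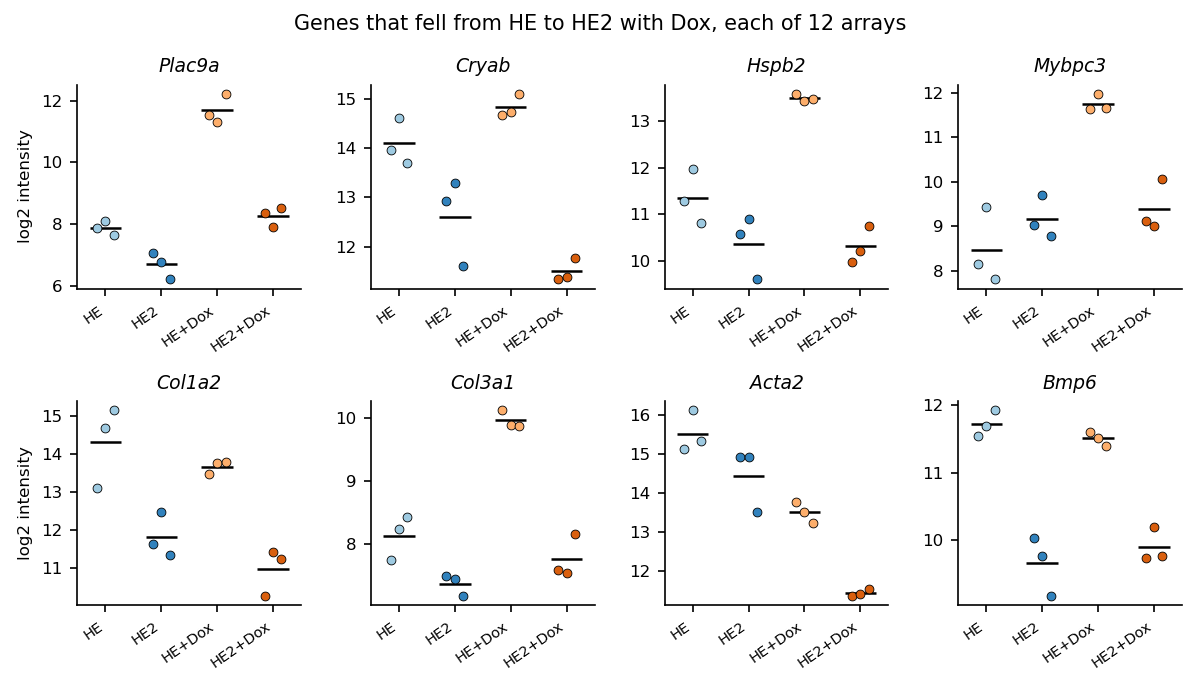
Log2 intensity of 8 genes that fell from HE to HE2 with Dox on each of the 12 arrays, with group means as bars; HE and HE2 stand for cells without Dox. Induced HE lies above the other groups for Plac9a (11.30 to 12.22), Hspb2, Mybpc3 and Col3a1, whereas Col1a2 and Bmp6 fall in both conditions.

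Over all genes, the change from HE to HE2 was higher with Dox for 95 genes (0.625%) and lower for 110 (0.724%), with adjusted P values of up to 0.0696. Higher changes came with a rise with Dox alone for 20 genes and with a fall without Dox alone for 38, and lower ones with a rise without Dox alone for 56, a rise in both for 13 and a fall with Dox alone for 33. The remaining 37 higher and 8 lower differences were of genes called in neither condition. None of the 51 genes that fell in both was called as differing. Since each difference holds both changes, a gene called in only 1 of them is more likely to be among these. The count of 95 was 49 without induced HE2 array 3, 54 without induced HE array 3, 50 without uninduced HE2 array 3 and 57 without uninduced HE array 3.

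Cck, the precursor of the peptide hormone cholecystokinin, had the largest difference in favour of Dox. It read 6.58, 7.89 and 6.37 in induced HE and 10.32, 9.45 and 9.85 in induced HE2, against 5.71 to 6.46 on all 6 uninduced arrays. The rise of 2.93 with Dox differed from -0.43 without it by 3.36 (SE 0.55, adjusted P = 0.0085 from limma). Dapk2, a death-associated kinase, rose by 1.78 with Dox and changed by -0.47 without, a difference of 2.24. Dupd1, a dual-specificity phosphatase, rose by 1.80 and Upb1, an enzyme of pyrimidine breakdown, by 1.42, with differences of 2.33 and 2.31. The rise of Upb1 was not called without induced HE array 3, at 1.29. Klhl4 and the adhesion protein Flrt3 were not called with Dox, at 0.84 and 0.47, and fell without it by 1.65 and 1.86. The difference of 2.34 for Flrt3 was lost without any of 9 of the 12 HE and HE2 arrays, those other than HE array 1 of either condition and uninduced HE2 array 2.

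The chemokines Ccl6 and Ccl9 had the largest differences against Dox. Ccl6 read 8.88, 8.77 and 8.49 in induced HE and 9.21, 8.48 and 7.50 in induced HE2, a change of -0.31. Without Dox it rose from 7.94, 7.0 and 7.33 to 11.21, 10.32 and 10.95, by 3.41, and the difference was -3.72 (SE 0.65, adjusted P = 0.0113 from limma). Ccl9 read 7.27, 6.79 and 5.8 and then 9.34, 8.38 and 7.04 with Dox, a change of 1.63 that was not called (adjusted P = 0.0678), though it was with the replicate block (adjusted P = 0.0102), and rose by 5.08 without it. Emilin2, a matrix glycoprotein, changed by 0.97 and 4.17, a difference of -3.21 (SE 0.69, adjusted P = 0.032). For all 3 genes induced HE2 array 3 was the lowest of its group, and without it the changes with Dox were 0.13 for Ccl6, 2.24 for Ccl9 and 1.55 for Emilin2, of which that of Ccl9 was called.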

How the data were processed

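RNA was hybridised to 1-colour Agilent mouse gene expression arrays. Per the file headers, the authors deposited scanner output of Feature Extraction 10.7.3.1 (the submitters' processing notes give 10.7.1.1), with median signal and background intensity for each of 62976 spots, and a table of log2 values made with limma. The deposited log2 values were used as an alternative, in which replicates 2 and 3 of induced HE and HE2 appeared exchanged relative to the scanner files, without effect on the groups. All 23 arrays were corrected with normexp (offset 16) and quantile normalized in limma 3.58.1 under R 4.3.3, leaving out 3671 control spots and, when averaging, spots marked as outliers. Where several probes stood for a gene, the one brightest on average was kept, and genes reaching 6.5 (log2) on any array, 15203 in all, were tested. The linear model held 22 arrays, a technical array of uninduced progenitors being left out, with a mean per group and an interaction term for Dox, and shared its estimate of spread over all groups. Precision is limited by the array number. Of all spots, 59.2 to 78.4% were well above background on the 12 HE and HE2 arrays, and called genes were not saturated.

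Genes were named by rule, as the 15 largest rises and falls with Dox without overlap, the 6 largest differences each way, the sort markers, Runx1, Runx1t1 and the called members of each list, with up to 4 called without Dox alone. Comparisons with and without Dox use different arrays. The members and lists were chosen with earlier results of these data known. The procedure was tested on simulated data. Replicate numbers paired the uninduced arrays, by correlations of 0.393, 0.795 and 0.608 between deviations of same-numbered HE and HE2 arrays, each the best match of its HE2 array, and not the induced ones, so the model without pairing was kept. The named genes whose call the replicate block changed, and the list counts that it raised, are given in the closing section. Alternatives covered background correction, normalization, filters, probes, thresholds, slide, scan date, the replicate number and leaving out each array. Promoter sequences came from RefSeq. The values of 1 called list member are not reported here.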

Additional observations from a re-analysis of the deposited data

Results flagged for a closer look

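The change from HE to HE2 differed with Dox by the interaction term (limma, P of at most 0.001 and at least 2-fold) for 29 of the genes that the naming rule gives, shown here as the log2 change with Dox minus that without it. It was lower with Dox for the chemokines Ccl6 (-3.72) and Ccl9 (-3.45), for Emilin2 (-3.21), and for the myeloid and leukocyte genes Tyrobp (-3.07), Coro1a (-2.28), Ncf1 (-2.26), Cd52 (-2.20), Btk (-1.70) and Il6ra (-1.61). The transcription factors Spi1 (-2.44), Ikzf1 (-2.26) and Cebpe (-1.25) were lower as well. Mybpc3 (-3.05), Nkain4 (-2.88), Cpxm2 (-2.85), Plac9a (-2.24), Nckap5 (-1.89), Itgb7 (-1.82) and Spon2 (-1.81), which fell with Dox, were lower too. The change was higher with Dox for Cck (3.36), Klhl4 (2.49), Flrt3 (2.34), Dupd1 (2.33), Upb1 (2.31), Dapk2 (2.24), Sox17 (1.95), Vwf (1.93), Stab1 (1.90) and Hes1 (1.84). The differences of Plac9a, Itgb7, Il6ra, Cebpe, Stab1 and Flrt3 lost their call without any of several single arrays. Those of Spi1 and Cd52 lost it with the HE and HE2 arrays fitted alone, whether or not they were also normalized alone, that of Ccl9 with these arrays fitted alone (adjusted P = 0.119) and that of Hes1 with them normalized and fitted alone (adjusted P = 0.122). Nr2f2, Gja4 and Flt1, named in the report outside the rule, also had called differences. Adjusted P values over these genes reached 0.062, that of Itgb7.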

How the results depend on the processing

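All 115 named genes called with Dox kept their direction in every alternative, 65 kept their call in all and 50 lost it in at least 1. The 246 rises with Dox ranged from 168 to 349 (168 to 287 leaving out 1 array) and the 365 without Dox from 304 to 495 (304 to 376). The 226 falls with Dox were 154 to 248 leaving out 1 array, 468 at 2-fold alone and 361 without induced HE2 array 3 and HE array 1, a setting chosen after seeing the data. Falls without Dox numbered 402, with 195 to 422 leaving out 1 array (258 without uninduced HE array 3, 195 without uninduced HE2 array 3) and 689 at 2-fold alone. Higher changes with Dox (95) numbered 59 with 75th percentile scaling, 45 and 46 with HE and HE2 arrays normalized or fitted alone, 53 at an adjusted P of at most 0.05, 468 at 2-fold alone and 49 to 99 leaving out 1 array. Lower changes (110) numbered 456 at 2-fold alone and 76 to 116 leaving out 1 array. Rises in both conditions (142) were 113 to 144 leaving out 1 array, and falls in both (51) were 32 with 75th percentile scaling, 27 and 27 with HE and HE2 arrays normalized or fitted alone, 81 at an adjusted P of at most 0.05, 159 at 2-fold alone, 67 without the same 2 induced arrays and 28 to 61 leaving out 1 array. Uncalled changes turned their sign when single induced arrays were left out. Leaving out 1 array, Tek ranged from -0.99 to 0.22, Runx1t1 from -0.34 to 0.14, Kit from -0.34 to 0.05 and Ccl6 from -0.72 to 0.13, and without both induced HE2 array 3 and HE array 1 Tek was at 0.83, Ccl6 at 0.22, Kit at -0.50 and Runx1t1 at -0.41. Replicate numbers did not pair the induced arrays, with correlations of 0.192, -0.476 and -0.0122 between same-numbered arrays. With the replicate block 260 genes rose and 280 fell, 236 and 219 of them as without it, and induced arrays did not each correlate best with their own number. In the same fit 383 genes rose and 452 fell without Dox, and the counts of higher and lower changes with Dox moved by less than 1.5 times (to 125 for the lower ones). The block ended the calls with Dox of Bcl11a (1.72, adjusted P = 0.0209 from limma), Tubb1 (1.67, 0.0209) and Smarcd3 (-1.0, 0.0206) and of the difference of Cebpe (0.0638), while Runx1 (1.24, 0.013) and Ccl9 (1.63, 0.0102) were called with Dox. Among the lists, the block raised the falls with Dox of cardiac and smooth muscle genes from 7 to 10. Those of epithelial genes went from 2 to 3 and those of endothelial transcription factors from 1 to 2. Rises with Dox went from 6 to 7 for erythroid genes and from 7 to 8 for cytokine and chemokine receptors. Where fewer arrays or another threshold were used, the construction changes the counts, and otherwise the cause was not tested.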
